A study of Mus musculus with 185 samples.

Results

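The cells described here are 19 cells of infarcted mouse hearts that were sorted as negative for CD31 and CD45. They expressed periostin (Postn) mRNA without being labelled as traced from Tcf21. They were set against the 44 cells labelled as activated and Tcf21-traced in the same microfluidic capture, so that all 63 cells of this capture were used, of 185 cells in 4 captures. Both classes came from adult mice of about 5 months, taken as C57BL/6-backcrossed. The methods of the study describe that backcross for the Postn MCM mice. The tracing genotype that fits the label of the 44 cells is Tcf21 MCM/+ with the R26-eGFP reporter, in which a tamoxifen-inducible Cre (MerCreMer) placed in the Tcf21 locus switches on eGFP for good in cells that express Tcf21 while the drug is given. That the 19 cells came from the same genotype was inferred from the shared capture and is not stated in the sources used here. For 9 of them, the labels name a panel that the study describes with Postn MCM/+; R26-eGFP mice, in which the Cre sits in the Postn locus. Whether all 63 cells carried the same targeted allele is therefore unknown, and a difference of genotype and the class cannot be told apart. Infarction (MI) was made by permanent ligation of the left coronary artery, and the study dates the cells to 7 days after it. Cells with CD31 (endothelial) or CD45 (leukocyte) on their surface were sorted away, single cells were captured on the Fluidigm C1 system, and eGFP was read by microscopy before the cDNA was made. The tamoxifen schedule of these cells is not given in the sources used here.

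The labels limit what the comparison can carry. The label of the 19 cells names Postn and the negative sort but not the word untraced, which was read from its contrast with the traced class. It also names Postn, so the level of Postn in these cells is a property of the label and not a finding. The label of the 44 cells can be read as traced from Tcf21, as positive for Tcf21, or as both. If it means positive for Tcf21, the Tcf21 difference between the classes rests in part on the label. Tcf21 mRNA was at 0 in 17 of these 44 cells. Recombination is incomplete in such mice, so a cell without eGFP can still have come from a cell that expressed Tcf21. No label ties a cell to a mouse, and cells do not stand in for replicate animals. Each class therefore counts as 1 sample, no test compares the classes, SD values are the spread between cells, and intervals of shares cover counting error only.

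Tcf21 is a transcription factor of the embryonic epicardium that is needed for cardiac fibroblasts to form and that resident fibroblasts of the adult heart keep expressing. Pdgfra encodes the platelet-derived growth factor receptor that marks these fibroblasts, whereas the related receptor encoded by Pdgfrb is prominent in pericytes and vascular smooth muscle and is also made by fibroblasts. Periostin is a secreted matricellular protein that fibroblasts make in quantity as they turn into the matrix-producing myofibroblasts of a scar.

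In the untraced Postn-positive cells, mean log2 levels of Pdgfra and Tcf21 were lower and that of Pdgfrb was higher than in the Tcf21-traced cells. With means of linear transcript abundances, the Pdgfrb difference was -0.022 log2 units and the Pdgfra difference -0.17. Among cells with Xist but no Y-linked gene detected, the Tcf21 difference was -0.24. The Tcf21 difference may rest in part on the label of the traced cells, which names Tcf21. Of 19 genes of resting and adventitial fibroblasts, 10 were more than 1 log2 unit lower, against 6.36% of all genes considered, and of 26 genes of collagen synthesis and cross-linking, 9 were more than 1 log2 unit higher, against 9.01%. Of 24 genes of the actin cytoskeleton and of cell adhesion, 8 were more than 1 higher, beside the same 9.01%. Of 20 matricellular genes, 7 were more than 1 higher and 1 more than 1 lower. These and the other groups of matrix genes held members on both sides of 0. All gene lists were chosen with earlier results of these data known, so no count of a list is independent evidence. Among the markers of pericytes and smooth muscle, Abcc9, Vtn, Higd1b, Myh11 and Myocd were detected in no cell of either class, and the others in some cells of 1 or both. The spread between cells was wide, and the classes overlapped for every gene and list whose cells are described below. When the traced cells were limited to those with Postn mRNA, these group counts shrank, to 6 of the 19 and 3 of the 26 genes. More than 1 higher were then 6 of the 24 actin and adhesion and 4 of the 20 matricellular genes. Among 13 myofibroblast genes, 1 in place of 7 was more than 1 higher. Of all genes, 8.76% were then more than 1 lower and 7.1% more than 1 higher.

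Levels are the deposited log2 (TPM+1), in which transcript abundances (TPM) have about the same sum in every cell, and detected means above 5 TPM in that cell. Read depth per cell is not known from such values. The number of detected genes, used in its place, had a median of 3361 in the untraced cells (from 1746 to 4631) and of 3134 in the traced cells (from 1815 to 5023). The ranges overlap almost fully. No pair among the 63 cells had identical values, and the closest pair had a Pearson correlation of 0.548 across genes. A value of 0 was not read as absence, because Pgk1, a glycolytic enzyme that every cell uses, was listed at 0 in 3 of the 19 untraced and 10 of the 44 traced cells.

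The study asks where the myofibroblasts of the scar come from, and the first comparison asks how cells outside the Tcf21 trace differ in the genes that mark that lineage. Pdgfra (mm10 chromosome 5, 75151322 to 75198206) lay between 0 and 8.66 in the untraced cells, with a median of 2.67, and between 0 and 8.41 in the traced cells, with a median of 4.71. The class means were 3.22 ± 2.90 (SD, n = 19 cells) and 4.71 ± 2.21 (SD, n = 44 cells), a difference of -1.50 log2 units (untraced minus traced, as throughout). Pdgfra was detected in 10 of the 19 untraced cells (52.6%, exact 95% Clopper-Pearson interval 28.9% to 75.6%) and in 39 of the 44 traced cells (88.6%, interval 75.4% to 96.2%). The ranges of the levels overlap, and the intervals of the shares overlap narrowly. The difference is smaller than the SD of either class.

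Tcf21 (chromosome 10, 22817263 to 22820143) was at 0 in 12 of the 19 untraced cells, so their median was 0, and its highest value was 9.20. In the traced cells it was at 0 in 17 of 44, with a median of 4.29 and a highest value of 10.88. The means were 2.39 ± 3.62 and 4.01 ± 3.62, a difference of -1.62, and Tcf21 was detected in 6 of the 19 untraced cells (31.6%, interval 12.6% to 56.6%) against 26 of the 44 traced cells (59.1%, interval 43.2% to 73.7%). The trace records past expression from the Tcf21 locus, so these counts describe mRNA at capture only, and whether both classes carried the targeted Tcf21 allele is not known. Neither Tcf21 nor Pdgfra was detected in 8 of the untraced cells (42.1%, interval 20.3% to 66.5%) and in 4 of the traced cells (9.09%, interval 2.53% to 21.7%). Both were detected in 5 of the untraced and 25 of the traced cells. With any value over 0 in place of 5 TPM, a minimum tried after the data were seen, neither was found in 3 of the untraced cells (15.8%, interval 3.38% to 39.6%) and in 1 of the traced cells (2.27%, interval 0.0575% to 12%).

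Pdgfrb (chromosome 18, 61045127 to 61085067) showed the opposite order. It lay between 1.43 and 8.26 in the untraced cells, with a median of 5.70, and was at 0 in none of them. In the traced cells it was at 0 in 12 of 44, with a median of 3.88 and a highest value of 8.85. The means were 5.57 ± 1.87 and 3.80 ± 3.25, a difference of 1.77, and the shares of cells were 18 of 19 (94.7%, interval 74% to 99.9%) and 26 of 44 (59.1%, interval 43.2% to 73.7%). The highest cells of both classes had similar levels, and the classes differed in how many cells were low. With means taken on the linear TPM scale, which high cells dominate, the Pdgfrb difference was -0.022. On that scale the Pdgfra difference was -0.17 and that of Tcf21 -0.60. Every cell of the capture had at least 1 of the receptors. Pdgfrb without Pdgfra was found in 9 of the 19 untraced cells (47.4%, interval 24.4% to 71.1%) and in 5 of the 44 traced cells (11.4%, interval 3.79% to 24.6%). Pdgfra without Pdgfrb was found in 1 untraced cell and in 18 traced cells (40.9%, interval 26.3% to 56.8%). The share with both receptors was 47.4% in the untraced and 47.7% in the traced cells. These shares depend on the minimum. With any value over 0, Pdgfrb without Pdgfra was found in 4 of the untraced cells (21.1%, interval 6.05% to 45.6%) and in 1 of the traced cells (2.27%), Pdgfra without Pdgfrb in 0 and 12, and both in 78.9% and 70.5%.

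Postn itself (chromosome 3, 54359267 to 54391041) lay between 7.58 and 13.39 in the untraced cells, with a median of 11.68, as their label requires. In the traced cells it lay between 0 and 13.66, with a median of 11.39, and was not detected in 5 of the 44. The medians were thus close, and the difference of the means of 1.52 rests largely on those 5 cells. Because the untraced class was labelled by Postn and the traced class was not, the differences are given below also with the traced class limited to the 39 cells with Postn above 5 TPM. There the Postn difference was 0.41, that of Pdgfra -1.51, that of Tcf21 -1.37 and that of Pdgfrb 1.44. The cut does not match the classes on Postn, since the 39 cells include traced cells as low as 2.64, under the lowest untraced cell at 7.58. What such cells add to the differences was not tested.

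**Figure D1:**
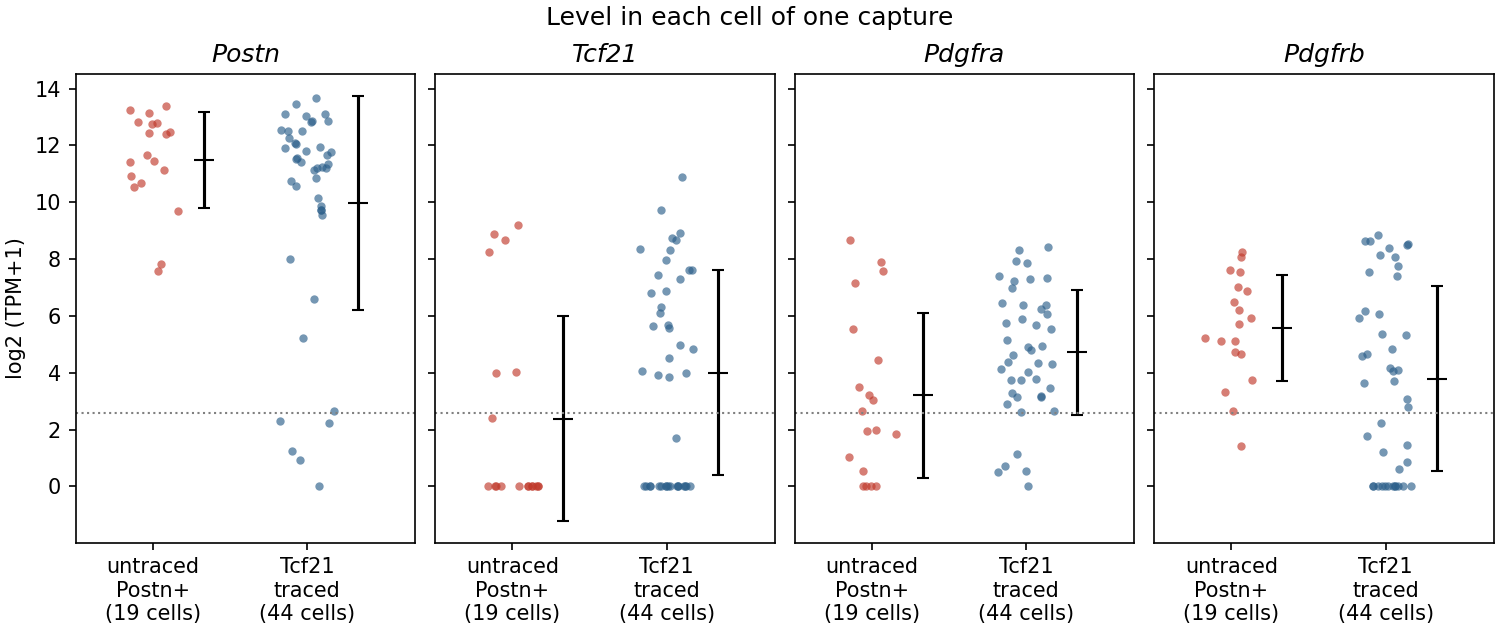
Level of 4 genes in log2 (TPM+1) in each untraced Postn-positive (red) and each Tcf21-traced cell (blue) of the capture; points are cells, bars are the mean and SD between cells, and the dotted line is 5 TPM. A larger share of the untraced cells lies under the line for Pdgfra and Tcf21 and a larger share of the traced cells for Pdgfrb, while Postn differs mainly through 5 traced cells under the line.

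Both sexes were present in the capture, a fact that the labels do not give. Xist, which is expressed from the inactive X chromosome, was detected without any of 4 Y-linked genes in 12 untraced and 16 traced cells. A Y-linked gene (Ddx3y, Eif2s3y, Kdm5d or Uty) was detected without Xist in 5 untraced and 11 traced cells. A further 3 traced cells had both, and 2 untraced and 14 traced cells had neither, so the sex of many cells is unknown. By the study, each group held cells of several mice, and mouse and class cannot be told apart fully. Among the cells with Xist alone, the Pdgfra difference was -0.84, that of Tcf21 -0.24 and that of Pdgfrb 0.67. Among the cells with Y-linked genes alone, they were -0.89, -2.79 and 4.19. All values with Xist alone, and that of Pdgfra with Y-linked genes alone, were under 1 in size, and no direction is read from such values. The Tcf21 and Pdgfrb differences were larger among the cells with Y-linked genes, of which only 5 were untraced. The median difference of all genes was 0.41 among those cells. Without the 3 cells that had both, the differences were -1.39, -1.51 and 2.04.

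Mural cells, the pericytes and smooth muscle cells of vessel walls, also make Pdgfrb. Of the 10 pericyte markers, Rgs5, Kcnj8, Abcc9, Vtn and Higd1b were not detected in any untraced cell, and Abcc9, Vtn and Higd1b in no traced cell. Rgs5 and Kcnj8 were detected in 2 traced cells each, with highest values of 9.13 and 9.56. Of the others, Cspg4 was detected in 3 untraced and 8 traced cells, Notch3 in 3 and 2, Mcam in 2 and 3 and Cox4i2 in 2 and 3. Pdgfrb was the most abundant of the list in both classes. The summed level of the list had a median of 59.3 TPM over the untraced cells (from 5.23 to 481.1) and of 35.3 TPM over the traced cells (from 0 to 833). Its mean was in the other order, at 113 TPM in the untraced and 157 TPM in the traced cells. In 14 of the 19 untraced cells (73.7%, interval 48.8% to 90.9%), Pdgfrb was detected without any other marker of the list, as it was in 17 of the 44 traced cells (38.6%, interval 24.4% to 54.5%). With any value over 0 these numbers were 3 and 4 cells. Cells with 3 or more pericyte markers numbered 2 among the untraced and 6 among the traced cells. Without them the Pdgfrb difference was 2.04 and the Pdgfra difference -1.90, in a comparison that was added after the data were seen. Pdgfrb counts among these markers itself, so its value without those cells is partly set by that choice of cells. Only Pdgfrb and Cspg4 passed the filter used for counts of genes, described below, so the median of the pericyte list, 0.86, is that of 2 genes, and over all 10 it was -0.01.

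Of the 10 smooth muscle markers, Myh11, the myosin heavy chain of smooth muscle, and Myocd, the cofactor that drives the smooth muscle programme, were not detected in any of the 63 cells. Cnn1 and Synpo2 were not detected in any untraced cell and were detected in 1 traced cell each. Lmod1 was detected in 1 untraced and 1 traced cell, Des in 2 and 2 and Mylk in 2 and 2. The other 3 markers, Tagln, Acta2 and Smtn, were detected in more cells. Tagln, an actin-binding protein of contractile cells, lay between 0 and 12.09 in the untraced cells, with a median of 7.89, and between 0 and 10.86 in the traced cells, with a median of 3.31. Its mean difference was 2.12, and it was detected in 13 of 19 and 23 of 44 cells. Acta2, which encodes alpha smooth muscle actin, had a difference of 1.20 (11 of 19 and 22 of 44 cells), and Smtn, a cytoskeletal protein, one of 0.78. The summed level of the list had a median of 289.3 TPM in the untraced and 129.5 TPM in the traced cells, with Tagln the most abundant gene in both. Cells with 3 or more of these markers numbered 6 of 19 (31.6%, interval 12.6% to 56.6%) and 11 of 44 (25%, interval 13.2% to 40.3%), shares whose intervals overlap widely.

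All 63 cells had 3 or more of the 8 fibroblast markers, and Dcn, a collagen-binding proteoglycan, was the most abundant of them in both classes. Of the 8, Tcf21, Pdgfra and the collagen receptor gene Ddr2 (-1.12) were more than 1 log2 unit lower in the untraced cells and Col1a1 more than 1 higher, beside 6.36% and 9.01% of all genes considered, with a median of -0.67. No cell had 3 or more endothelial, leukocyte, epicardial or Schwann cell markers. A share of 0 of 19 allows up to 17.6%. Pecam1, which encodes CD31, and Ptprc, which encodes CD45, were not detected in any untraced cell. In the traced cells, which passed the same sort, Pecam1 was detected in 2 and Ptprc in none. Cardiomyocyte markers reached 3 in 1 untraced and 1 traced cell. Over all markers in the table, detected or not, the median difference was -0.01 for the 6 endothelial and the 8 cardiomyocyte markers and 0 for the 8 leukocyte, the 8 epicardial and the 7 Schwann cell markers. The lowest and highest differences were -0.26 (Pecam1) and 0 for endothelial, -0.15 (Cd14) and 0.19 (Lyz2) for leukocyte, -0.15 (Tnni3) and 0.37 (Actc1) for cardiomyocyte, and -0.051 (Krt19) and 0.17 (Tbx18) for epicardial markers. The highest of the Schwann cell markers was 0.68 (S100b). The summed level of the Schwann cell list had a mean of 36.8 TPM in the untraced and 3.76 TPM in the traced cells, with a median of 0 in both, and its part in other differences was not tested. Leaving out every cell that had 3 or more markers of a type other than fibroblast left 12 untraced and 29 traced cells. Among them the Pdgfra difference was -1.32, that of Tcf21 -1.03 and that of Pdgfrb 2.31. Pdgfrb counts among the pericyte markers, so its value here is partly set by that choice of cells. Most cells left out, 6 untraced and 11 traced, had 3 or more smooth muscle markers. Acta2 is on that list and on the list of myofibroblast genes, so this step does not remove other cell types alone.

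Across all genes, 8243 of 17171 were above 5 TPM in at least 10% of the 63 cells, a filter that does not use the classes. Of these, 57 were more than 2 log2 units higher in the untraced cells (0.691% of the genes considered) and 27 more than 2 lower (0.328%). More than 1 log2 unit higher were 743 genes (9.01%) and more than 1 lower 524 (6.36%). These are counts by size. They do not say how many genes differ between the classes, because the spread between cells is of the same order: the median gene had an SD of 2.50 in the untraced and 2.49 in the traced cells. With that spread and this number of cells, many genes can pass these sizes without any difference between the populations, so the counts are not used as evidence of one. Just 1 gene, Kpnb1, differed by more than the SD of both classes (0.0121%). The median difference over all genes considered was 0.05.

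**Figure D2:**
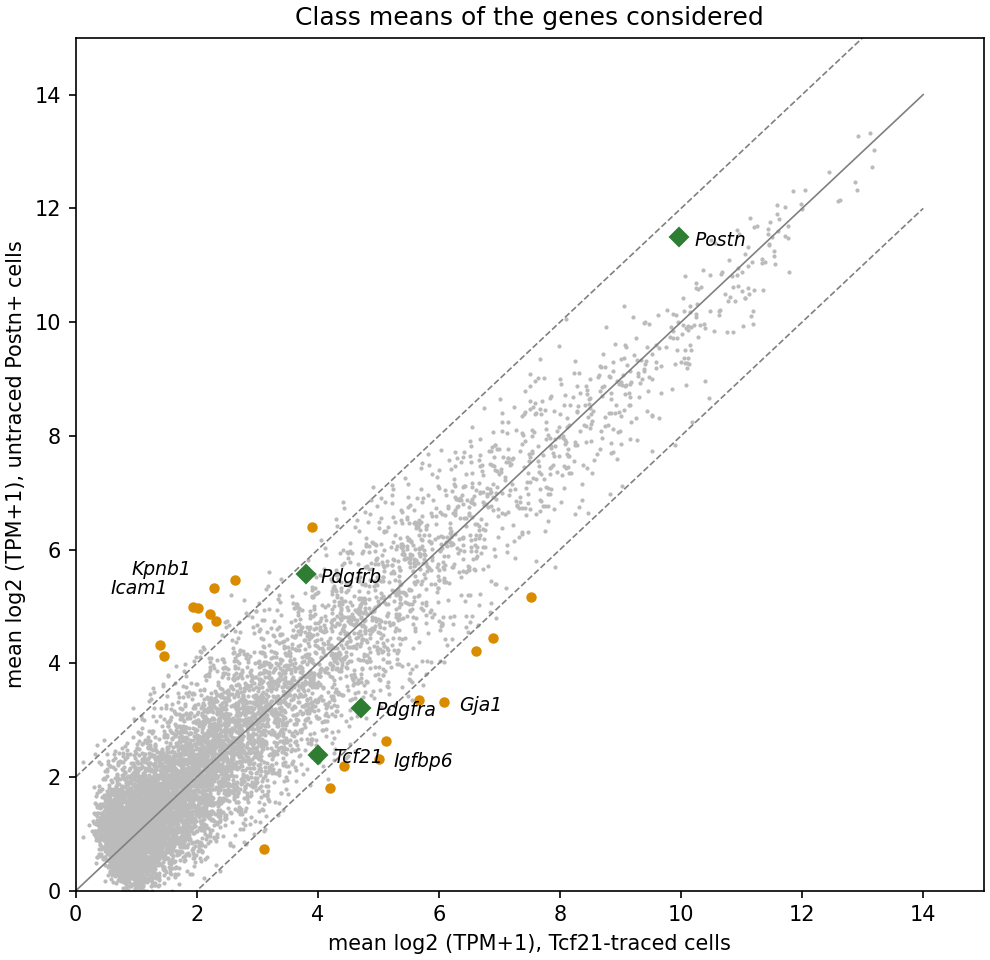
Mean log2 (TPM+1) of each of the 8243 genes considered in the traced cells (x axis) and the untraced cells (y axis); the dashed lines mark 2 log2 units either way. Green diamonds are the 4 lineage and receptor genes and orange points the 10 genes with the largest difference in each direction among genes detected in at least 25% of the cells, chosen by that size.

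Among genes detected in at least 25% of the cells, the 10 with the largest positive difference began with Icam1, an adhesion receptor for leukocytes that inflammatory signals induce. It had a mean of 4.99 ± 3.46 in the untraced and 1.94 ± 2.74 in the traced cells and was detected in 15 of 19 and 12 of 44 cells, a difference of 3.05. Kpnb1, the importin that carries proteins into the nucleus, followed at 3.04, with 17 of 19 and 19 of 44 cells. Kpnb1 is needed by every cell, yet it was listed at 0 in 18 traced cells, so its difference is one of detection as much as of level. The others were Cisd1 (a mitochondrial iron-sulfur protein, 2.94), Dda1 (2.93), the chromatin remodelling subunit Smarcb1 (2.85), the phospholipase Pla2g4a, which frees arachidonic acid (2.67), Hmgcs1 of sterol synthesis (2.65), Zcchc14 (2.64), the aminopeptidase Dnpep (2.49) and Btg3 (2.42). They belong to no common list fixed here. A predicted transcript without a symbol was passed over among these, and none among the genes with negative differences.

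The gene with the largest negative difference was Gja1, which encodes the gap junction protein connexin 43. Its mean was 3.31 ± 3.03 in the untraced and 6.09 ± 3.32 in the traced cells, a difference of -2.78, and it was detected in 10 of 19 and 35 of 44 cells. Igfbp6, a binding protein for insulin-like growth factors, followed at -2.69 (6 of 19 and 28 of 44 cells). Then came Atp6v1e1 of the vacuolar proton pump (-2.48), the transcription factor Klf13 (-2.44), the interleukin-1 receptor Il1r1 (-2.40), the cobalamin carrier Tcn2 (-2.39), thrombomodulin (Thbd, -2.37), the LIM protein Fhl1 (-2.35), the purine enzyme Pnp (-2.32) and Alg5 of protein glycosylation (-2.24). Thbd was detected in 1 of 19 untraced and 21 of 44 traced cells. With the traced cells limited to those with Postn, 7 of the 10 highest and 6 of the 10 lowest were again among the 10 of that comparison, with Icam1 at 2.94 and Gja1 at -3.04. These genes were chosen by the size of their difference among many, which favours differences enlarged by the spread between cells.

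Among gene groups, the list of resting and adventitial fibroblast genes had a median below 0. Of 20 listed, 19 passed the filter, 10 were more than 1 log2 unit lower in the untraced cells and 0 more than 1 higher, against 6.36% and 9.01% of all genes considered. The median was -1.22, against 0.05 over all genes. Smoc2, a matricellular protein of resting cardiac fibroblasts, had means of 4.90 ± 3.87 and 6.84 ± 3.49, a difference of -1.94. Ly6a, the surface protein Sca-1 of adventitial and progenitor-like fibroblasts, had a difference of -1.90, the ectonucleotidase Entpd2 of -1.82 and the sialomucin Cd34 of -1.57. Against the traced cells with Postn, 6 of the 19 were more than 1 lower and 1, Mgp at 1.16, a gene chosen after its value was seen, more than 1 higher, and the median was -0.65. In that comparison, 8.76% of all genes considered were more than 1 lower and 7.1% more than 1 higher, with a median of -0.034. Within the cells with Xist alone, the median was -0.35, and Ly6a was 1.86 higher in the untraced cells among those with Y-linked genes alone.

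Like every list used here, that of 14 myofibroblast genes was chosen with earlier results of these data known and is no independent evidence. Postn is among them and was left out here, since the untraced class was labelled by it. Of the other 13, 7 exceeded the traced mean by over 1 log2 unit and 0 were more than 1 lower, against 9.01% and 6.36% of all genes. The median was 1.19, and 1.20 with Postn. Tnc, the matricellular tenascin of wounds, was at 0 in 31 of the 44 traced cells and detected in 12 of 19 untraced and 8 of 44 traced cells, with means of 3.45 ± 2.92 and 1.22 ± 2.55 and a difference of 2.23. The microfibril protein Mfap2 had a difference of 1.73 and Ctgf, a matricellular growth factor modulator, of 1.58. Against the traced cells with Postn, 1 of the 13, Tnc at 2.07, was more than 1 higher, a share close to the 7.1% of all genes, and the median was 0.54 (0.51 with Postn).

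Collagen synthesis and cross-linking had 26 genes that all passed the filter, with 9 more than 1 higher (9.01% of all genes), 0 more than 1 lower and a median of 0.85. The cross-linking enzyme Loxl2 was detected in all 19 untraced and 35 of 44 traced cells, with means of 6.91 ± 1.47 and 5.04 ± 2.69. Its difference of 1.87 was 2.09 against the traced cells with Postn. The prolyl hydroxylase subunit P4ha3 (1.62), the fibril collagen gene Col11a1 (1.42) and the network collagen gene Col8a1 (1.35) followed, and Col1a1, the main fibrillar collagen gene, had a difference of 1.23. Against the traced cells with Postn, 3 of the 26 were more than 1 higher and 1 more than 1 lower, with a median of 0.61, beside 7.1% and 8.76% of all genes. These counts are near the shares of all genes. Of the 13 basement membrane genes that passed of 15, Col15a1 (1.60), Col4a5 (1.37) and Lamb1 (1.09) were more than 1 higher and Lamc1 (-1.09) more than 1 lower, with a median of 0.61. Lamb1 was -0.29 with linear means. Of 20 matricellular genes, 7 were more than 1 higher and 1, Efemp1 at -1.18, likewise named after its value was seen, more than 1 lower, against 9.01% and 6.36% of all genes. The median was 0.29 and 13 were above 0. With the traced class limited to cells with Postn, 4 were more than 1 higher and 0 more than 1 lower. Thbs1, a thrombospondin that can activate latent TGF-beta, had a difference of 1.89 and Wisp2 one of 1.65. Small leucine-rich proteoglycans, which bind collagen fibrils, had a median of -0.36 over the 8 of 9 that passed, 1 of them above 0, with Prelp at -1.10, Lum at -0.93, Dcn at -0.41 and Ogn at -0.41. Among the cells with Xist alone, Prelp was 0.75.

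Genes of the actin cytoskeleton and of cell adhesion had 8 of 24 members more than 1 higher in the untraced cells (9.01% of all genes), 0 more than 1 lower, 19 above 0 and a median of 0.54. Actn4, an actin cross-linker, had means of 6.84 ± 1.64 and 4.42 ± 2.60, a difference of 2.41, and was detected in all 19 untraced and 34 of 44 traced cells. The focal adhesion protein Zyx had a difference of 1.91, the myosin light chain gene Myl9 of 1.67 and the collagen-binding integrin Itga11 of 1.46. Against the traced cells with Postn, 6 of the 24 were more than 1 higher, against 7.1% of all genes, with a median of 0.25 and Actn4 at 2.04.

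**Figure D3:**
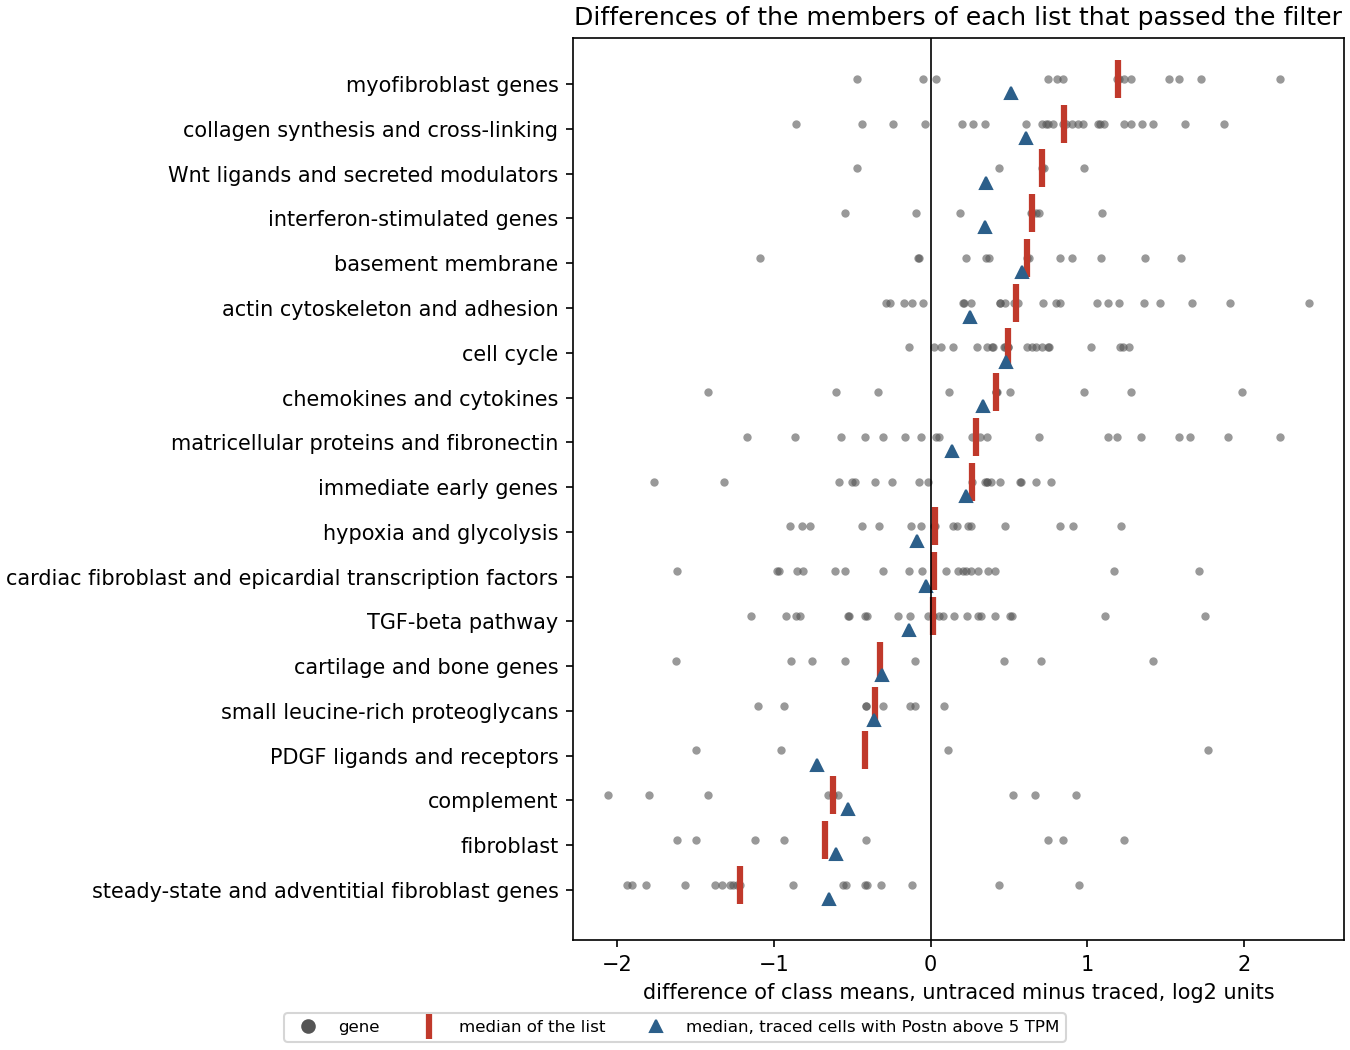
Difference of class means, untraced minus traced in log2 units, of the members that passed the filter in each list with at least 4 such members. Grey points are genes, red bars are list medians, and blue triangles are the medians when the traced cells are limited to those with Postn above 5 TPM, which moves the myofibroblast median, Postn included, from 1.20 to 0.51 and the steady-state median from -1.22 to -0.65.

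The wide overlap shows in single cells. The mean over the 13 myofibroblast genes other than Postn lay between 5.22 and 8.17 in the untraced cells, with a median of 6.99, and between 1.10 and 8.62 in the traced cells, with a median of 6.28. All untraced cells lay within the range of the traced cells, and the low end was held by traced cells alone. The mean over the 19 steady-state and adventitial genes lay between 1.74 and 7.11 in the untraced cells, with a median of 5.60, and between 2.07 and 8.80 in the traced cells, with a median of 6.14. A position above the traced median of the first and below that of the second was held by 10 of 19 untraced cells and 16 of 44 traced cells. Against the traced cells with Postn, the differences of the mean levels were 0.52 and -0.69, under the SD between the untraced cells of 0.99 and 1.57.

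**Figure D4:**
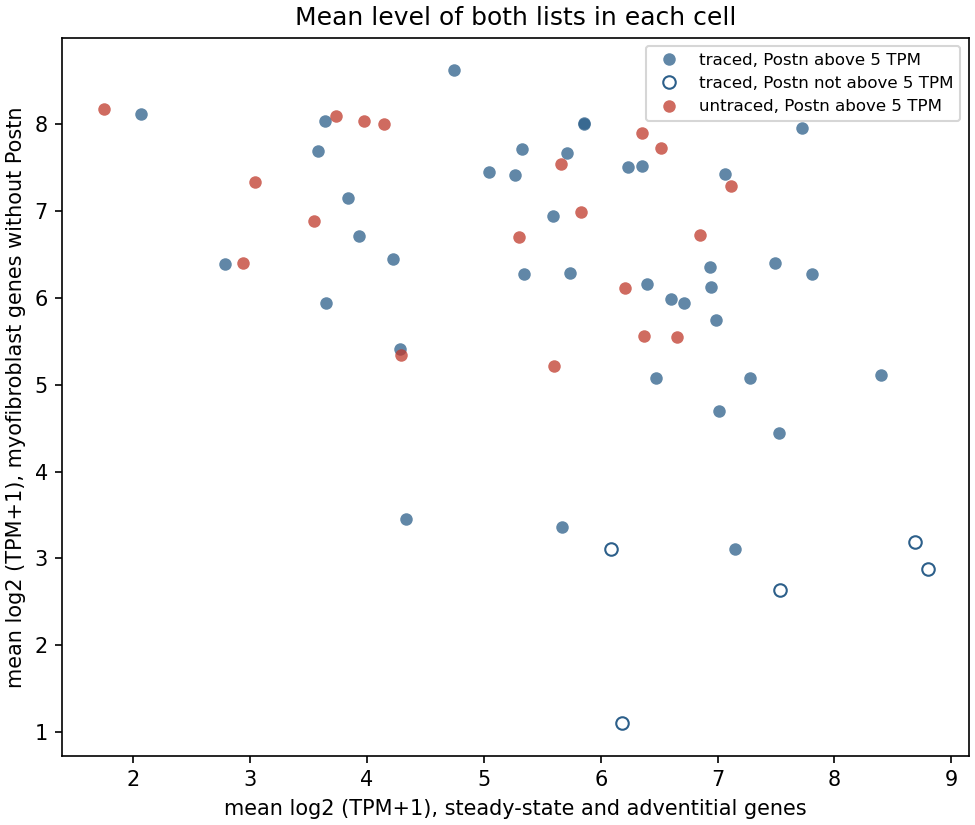
Mean log2 (TPM+1) of 19 steady-state and adventitial genes (x axis) and of 13 myofibroblast genes without Postn (y axis) in each cell. Untraced cells (red) lie among the traced cells (blue), and the 5 traced cells without Postn above 5 TPM (open) lie at the lower end of the y axis.

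Of 30 named genes up to 1 log2 unit apart, 25 changed sign in some alternative way of processing, so no direction is read from such values. Among signalling genes, the TGF-beta pathway had a median of 0.02 over 23 of 27 listed genes, with 2 more than 1 higher and 1 more than 1 lower, against 9.01% and 6.36% of all genes. The ligand genes stood apart from each other, with Tgfb2 at 1.75 and Tgfb3 at -1.14, beside the receptor Acvrl1 at 1.11 and the transducer Smad4 at -0.92. Among the cells with Y-linked genes alone, Tgfb3 was 1.42. Of the PDGF family, Pdgfrl was at -0.95 and the ligand Pdgfa at 0.11 beside the receptors given above. Of 20 transcription factors that passed, Meox1, a homeobox gene, was at 1.71 (13 of 19 and 19 of 44 cells), Twist1 at 1.17 and Mef2c at -0.98, and the median was 0.02. Wnt genes had a median of 0.71 over 5 genes that passed of 16, none more than 1 away, with Frzb at 0.97, Dkk3 at 0.72, Sfrp2 at 0.71 and Wnt9a at -0.47. Cartilage and bone genes had a median of -0.32 over 8 genes, with Comp at -1.63 (1 of 19 and 12 of 44 cells), Col11a1 at 1.42, Cilp at -0.89 and Spon2 at -0.76.

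Inflammatory genes were mixed. Of 11 chemokine and cytokine genes that passed, the monocyte attractant Ccl2 had a difference of 1.99 and the neutrophil attractant Cxcl1 of 1.28, whereas the alarmin Il33 was at -1.42 and Mif at 0.98, with a median of 0.42. Without the cells that had 3 or more markers of another type, mostly of smooth muscle, Ccl2 was -0.16 and Cxcl1 -0.47. That left 12 untraced and 29 traced cells. Among the cells with Y-linked genes alone, Il33 was 2.48 and Cxcl1 -0.54, and with linear means Ccl2 was -0.045. Complement genes had 3 of 9 more than 1 lower (6.36% of all genes), 0 more than 1 higher and a median of -0.62, with the decay factor Cd55 at -2.06, the inhibitor Serping1 at -1.80, C3 at -1.42 and C1qtnf6 at 0.93. Against the traced cells with Postn, these values were -2.15, -1.62, -1.42 and 0.47, and 3 of the 9 were more than 1 lower beside 8.76% of all genes. Interferon-stimulated genes had a median of 0.64 over 8 genes that passed of 16, with Irf1 at 1.09, Ifi205 at 0.69, Oas1a at 0.67 and Ifi27l2a at 0.65. Irf1 was -2.27 among the cells with Y-linked genes alone and -0.060 without the cells with markers of another type. Of 19 immediate early genes, which dissociation can induce, Atf3 (-1.76) and Myc (-1.32) were more than 1 lower (6.36% of all genes) and none more than 1 higher, with Klf6 at 0.77, Ier2 at 0.67 and a median of 0.26. Myc was 0.22 among the cells with Xist alone.

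Cell cycle genes had 4 of 22 members more than 1 higher in the untraced cells (9.01% of all genes), 0 more than 1 lower and a median of 0.49. The survivin gene Birc5 had a difference of 1.27 (5 of 19 and 6 of 44 cells), the replication clamp Pcna of 1.23 (12 of 19 and 18 of 44 cells), Top2a of 1.21 (4 of 19 and 3 of 44 cells) and the helicase subunit Mcm7 of 1.02 (6 of 19 and 8 of 44 cells). Among the cells with Y-linked genes alone, Top2a was -0.46. Hypoxia and glycolysis genes had a median of 0.03 over 17 genes, with Tpi1 at 1.21, Eno1 at 0.91, Aldoa at -0.90 and Pgam1 at 0.83.

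The 19 untraced cells were not uniform. By their labels, 9 were tied to the panel named above and 10 were not. Pdgfra was detected in 4 of the 9 and 6 of the 10, Tcf21 in 2 and 4, and Pdgfrb in 9 and 9. Mean Pdgfrb was 6.17 ± 1.68 in the 9 and 5.02 ± 1.94 in the 10, and mean Tcf21 was 1.63 ± 2.88 and 3.07 ± 4.22. The differences from the traced cells were thus larger for the 9, at -1.86 for Pdgfra, -2.38 for Tcf21 and 2.37 for Pdgfrb, than for the 10, at -1.17, -0.94 and 1.22. The median of the steady-state list was -1.54 for the 9 and -0.36 for the 10, and Cd34 was 0.33 higher than in the traced cells for the 10. For the 10, Ddr2 was 0.23, Top2a -0.46, Mcm7 -0.42, Acvrl1 -0.18 and Wisp2 -1.33, and for the 9, Cxcl1 was -0.50 and Irf1 -0.066. The differences between the 9 and the 10 in Pdgfra, Tcf21 and Pdgfrb lie within the SD between cells.

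Postn-positive cells without a trace label were also present in other captures, where capture and class cannot be told apart. In the capture with periostin-traced cells, they lack the label of the periostin trace. The 19 cells are taken to lack the Tcf21 trace, so untraced does not mean the same in both. In 6 such cells of the capture with periostin-traced cells, mean Pdgfra was 3.77 ± 4.12, Tcf21 4.99 ± 3.88 and Pdgfrb 3.17 ± 2.50. Pdgfra was detected in 3 of the 6 (50%, interval 11.8% to 88.2%), Tcf21 in 4 and Pdgfrb in 4. In 3 such cells of the last capture, Pdgfrb was detected in 0, Pdgfra in 1 and Tcf21 in 2. Neither the high share of cells with Pdgfrb nor the low share with Tcf21 of the 19 cells was seen in these 9 cells. Their numbers allow no closer comparison. In 29 untraced cells sorted from the scar, mean Pdgfra was 3.32 ± 3.23 and mean Pdgfrb 4.17 ± 3.55. Mean Tcf21 was 1.52 ± 2.96 in these cells, and it was detected in 5 of the 29 (17.2%).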

How the data were processed

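The authors deposited log2 (TPM+1) for single cells, and these values were used without further normalization. The submitters' processing notes name Bowtie 1.0.0, eXpress 1.5.1 and mm10. A further 3 columns belong to no sample and were left out. Class values are means over cells. A gene was detected above 5 TPM, and counts of genes used those detected in at least 10% of the 63 cells. The genes named are Postn, Tcf21, Pdgfra and Pdgfrb, the 10 largest differences in each direction among genes detected in at least 25% of the cells, leaving out predicted transcripts, and the 4 members of each list with the largest absolute difference. Mgp, Efemp1 and some markers of other cell types were named after their values were seen. Members and lists were chosen with earlier results of these data known. Positions are from RefSeq on GRCm38.p6, the assembly of mm10, and all 4 genes matched by symbol. The script for class differences was tested on simulated data. Counts of cells with 2 genes together and means over a list in each cell were chosen after values were seen. Tools were SciPy 1.17.1, pandas 2.3.3, NumPy 2.4.6 and Matplotlib 3.10.9 under Python 3.11.15.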

Additional observations from a re-analysis of the deposited data

Results flagged for a closer look

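Among the 9 untraced cells tied to a panel of the study, the cell with the highest Tcf21, at 8.26 in log2 (TPM+1), lay far from the others by Dixon's test of the gap to its neighbour. Of 12 combinations of gene and group of cells looked at this way, this was 1, and chance alone gives such gaps now and then. The cells are not replicate animals, so this describes the spread among 9 cells and bears on no comparison of the classes.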

How the results depend on the processing

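The counts of genes past 2 log2 units, 57 higher and 27 lower, were the same with either lower minimum and with no filter, and 53 and 27 with the 25% filter. They depended on the scale and on the cells used. They were 340 and 671 with linear means, 480 and 283 with medians over cells, 317 and 163 with a pseudocount of 0.1, 6 and 1 with a pseudocount of 5, and 115 and 9 with each cell centred on the median of its detected genes. They were 164 and 93 without cells with 3 or more markers of another type. With the 9 panel cells they were 349 and 88, and with the other 10 cells 140 and 132. In cells with Xist alone they were 164 and 203, and in cells with Y-linked genes alone 1155 and 235. Of the last, 83.1% were higher, and the median of all genes was 0.41 there. Fewer cells can widen differences either way, and the cause of this shift was not tested. Against traced cells with Postn, the counts were 41 and 46. The share of these genes that were higher was 67.9%, but 33.6% with linear means, 85.7% with a pseudocount of 5, 92.7% with centring and 47.1% against traced cells with Postn. Centring moved the median of all genes to 0.31. These counts were therefore not used to describe the cells.

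The Pdgfra difference lay between -2.17 and -0.17 and that of Tcf21 between -4.29 and -0.24, negative in all 13 alternatives, and that of Postn between 0.29 and 3.55, the last in cells with Y-linked genes alone. The median of the myofibroblast list lay between 0.39 and 1.99 (1.19 without Postn), that of the steady-state list between -1.54 and -0.35 and that of the pericyte list between -0.01 and 2.10. With any value over 0 as the minimum, Pdgfra was found in 78.9% of untraced and 97.7% of traced cells, Postn in 97.7% of traced cells and Pdgfrb in 100% of untraced cells, the last also at 1 TPM.

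Of 72 named genes more than 1 log2 unit apart, 16 changed sign in some alternative, 5 others reached 0 and 51 kept their sign throughout. Of 30 up to 1 apart, 25 changed sign. With linear means the 16 included Ccl2 (-0.045), Lamb1 (-0.29) and Pdgfrb (-0.022). Without cells with other markers they were Ccl2 (-0.16), Cxcl1 (-0.47) and Irf1 (-0.060). With the 9 panel cells they were Cxcl1 (-0.50) and Irf1 (-0.066), and with the other 10 Acvrl1 (-0.18), Cd34 (0.33), Ddr2 (0.23), Mcm7 (-0.42), Top2a (-0.46) and Wisp2 (-1.33). In cells with Xist alone they were Myc (0.22) and Prelp (0.75), and in cells with Y-linked genes alone Cxcl1 (-0.54), Il33 (2.48), Irf1 (-2.27), Ly6a (1.86), Tgfb3 (1.42) and Top2a (-0.46). The cause was not tested. No cell had fewer than 50% of the median number of detected genes, so that alternative gave no value. A minimum other than 5 TPM for 2 genes together, and leaving out cells with Xist and Y-linked genes, or with 3 or more pericyte markers, or Postn from the myofibroblast list, were chosen after the data were seen. Following the median of the steady-state list through the alternatives was also decided after the data were seen. No paired analysis was possible because no label ties a cell to a mouse.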
